A study of Mus musculus with 12 samples.

Results

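Slc7a11, Gclc and Chac1 are 3 genes of 1 metabolic route, from the uptake of cystine to the making and breaking down of glutathione. They were found by symbol and gene ID among the 7902 genes of the deposited tables, with the values of all transcript rows of a gene summed, and all 3 passed the filter on low counts, as did 7638 genes in all. The data are bulk RNA sequencing libraries of mouse skin, 12 in all, with 4 in each of 3 groups. Ctrl was control skin. Model was skin aged by D-galactose, a reducing sugar used to bring on oxidative and glycation damage, in combination with ultraviolet A and B light. M+NSPCC1 was skin of the same D-galactose and ultraviolet model that also received NSPCC1, a grape seed extract. Strain, sex, age, doses, body site and timing were not given in the sources used here, nor whether each library came from its own animal. The p-values below therefore measure the spread between these libraries, which may be partly technical. The 3 genes were proposed with results of these data known, so their levels, their differences between groups and their relations across libraries are given as a description, without p-values.

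Slc7a11 encodes xCT, the transporter subunit of system xc-, which brings cystine into the cell in exchange for glutamate, and Slc3a2 encodes the heavy chain that carries xCT to the membrane. Inside the cell cystine is reduced to cysteine. Gclc encodes the catalytic subunit of glutamate-cysteine ligase, the rate-limiting enzyme of glutathione synthesis, and Chac1 encodes a gamma-glutamylcyclotransferase that degrades glutathione in the cytosol. The transcription factor NRF2, held down by KEAP1, is known to drive Slc7a11 and Gclc under oxidative stress, and ATF4 is known to drive Slc7a11 and Chac1 when amino acids run short. In pigment cells cysteine also enters the red and yellow pigment pheomelanin, and loss of xCT in the subtle gray mouse reduces it. Tyr encodes tyrosinase, which begins melanin synthesis and marks pigment cells of the hair follicle.

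On the mouse assembly GRCm38.p6, Slc7a11 (gene ID 26570) lies at chr3:50364936-50499087, Gclc (14629) at chr9:77754535-77794489, Chac1 (69065) at chr2:119351242-119354326 and Tyr (22173) at chr7:87424771-87493512. The RefSeq promoter table for that assembly held Slc7a11, Chac1 and Tyr, and Gclc was not in it. The 250 bases before the 1 start that the table gives for each gene are printed because letters known from ATF4 targets and from pigment genes can be compared in them. For Chac1 and Tyr that start is the outermost one of the gene span. For Slc7a11 it is at base 50443613, which lies 55474 bases inside the span, so another start of the gene lies further upstream and was not searched, and which start the counted transcript rows use is not given. They span chr3:50443614-50443863 on the minus strand, chr2:119350992-119351241 on the plus strand and chr7:87493513-87493762 on the minus strand. Capitals mark TGATGNAA, the amino acid response element bound by ATF4 (TTGCATCA when read on the other strand), and CATGTG, an E-box of pigment genes.
Slc7a11: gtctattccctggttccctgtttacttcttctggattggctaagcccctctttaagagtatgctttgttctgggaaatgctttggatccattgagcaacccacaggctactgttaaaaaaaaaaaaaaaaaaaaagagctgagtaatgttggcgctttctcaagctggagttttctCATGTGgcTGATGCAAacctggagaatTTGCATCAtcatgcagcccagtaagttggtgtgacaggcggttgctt
Chac1: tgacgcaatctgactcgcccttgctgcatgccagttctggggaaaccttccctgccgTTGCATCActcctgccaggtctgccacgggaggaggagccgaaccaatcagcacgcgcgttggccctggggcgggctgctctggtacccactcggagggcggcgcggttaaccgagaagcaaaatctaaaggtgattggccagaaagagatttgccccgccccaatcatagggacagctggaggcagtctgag
Tyr: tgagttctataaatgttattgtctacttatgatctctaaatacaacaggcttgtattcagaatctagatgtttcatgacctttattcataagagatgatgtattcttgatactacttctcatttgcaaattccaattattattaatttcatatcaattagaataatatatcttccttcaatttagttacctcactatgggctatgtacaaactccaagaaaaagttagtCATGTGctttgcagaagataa

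Slc7a11 held TGATGNAA once on each strand, from -66 to -59 on the sense strand and from -47 to -40 on the other, counted in bases from the start in the table. Chac1 held it once, from -193 to -186 on the other strand. Of the 32851 promoter windows of that length in the table, 3.45% held this motif on either strand. CATGTG stood on the sense strand of Slc7a11 from -74 to -69 and of Tyr from -21 to -16, and 12.3% of all windows held it. The antioxidant response element bound by NRF2 (TGACNNNGC, in 10.2% of windows), CACGTG (6.02%) and the AP-1 site TGACTCA (4.46%) had no match in the 3 windows. Both strands were searched, and no match overlapped a match of another motif. A match describes these letters in these windows and shows no binding.

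**Figure D1:**
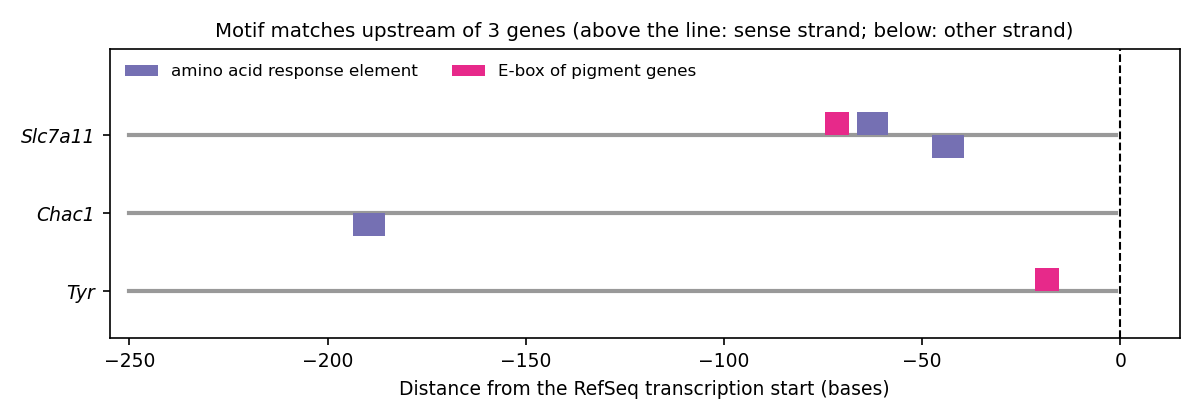
Positions of motif matches in the 250 bases before the start given in the RefSeq promoter table for Slc7a11, Chac1 and Tyr, with the distance from the start in bases on the x axis. Boxes above a line are on the sense strand and boxes below it on the other strand; Slc7a11 has matches of both motifs from -74 to -40, Chac1 of 1 motif and Tyr of the other.

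The tables cover part of each library, with totals of 9717338 to 10952623 estimated counts. Most of the 7638 tested genes differed between Ctrl and the other groups, so the cellular make-up of the skin has to be read beside every value. The summed share of skeletal muscle markers (all 22 in the tables, all 22 fell in Model) was 9.6% to 10.1% of counts in Ctrl, 0.567% to 2.01% in Model and 1.42% to 2.27% in M+NSPCC1. Hair shaft and inner root sheath markers (29 of 31 in the tables, all 29 rose in Model) made up 0.0211% to 0.052%, 5.39% to 8.1% and 3.9% to 6.73%. Melanocyte markers (18 of 19 in the tables, all 18 rose) made up 0.0282% to 0.0299%, 0.175% to 0.469% and 0.302% to 0.453%. Cell cycle markers (all 24 in the tables, all 24 rose) made up 0.0617% to 0.0753%, 0.214% to 0.386% and 0.363% to 0.415%. Markers of macrophages and other immune cells (11 of 18 in the tables, 9 fell and 1 rose in Model) made up 0.308% to 0.443%, 0.0702% to 0.217% and 0.0813% to 0.133%. Epidermal markers (9 of 18 in the tables, 3 rose and 6 fell in Model) made up 1.16% to 1.55%, 0.666% to 1.28% and 0.777% to 1.22%. None of the markers in these lists was at 0 in all libraries of a group. Model 03 stood apart within its group, with the lowest melanocyte and hair shaft shares and the highest muscle share of the Model libraries, and M+NSPCC1 01 had the lowest hair shaft share of the 8 model libraries.

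In the transcript rows deposited, Slc7a11 was nearly silent in control skin and present in every library of both model groups. On the scale of scaled counts (CPM, counts relative to a library total corrected for composition), Ctrl 01 had 2.43 CPM from 22 counts, and Ctrl 02, 03 and 04 had 0. Model 01 to 04 had 43.8, 53.8, 45.1 and 61.3 CPM, and M+NSPCC1 01 to 04 had 34.7, 30.5, 34.1 and 34.5 CPM. All 8 libraries of the model groups were above all 4 Ctrl libraries, and all 4 M+NSPCC1 libraries were below all 4 Model libraries.

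The mean of Slc7a11 was 51.0 ± 8.19 CPM in Model and 33.4 ± 1.97 CPM in M+NSPCC1 (SD over 4 libraries). The ratio of the means to Ctrl was 83.8 for Model and 55.0 for M+NSPCC1, and both ratios rest on the 22 counts of Ctrl 01. Against the other 3 Ctrl libraries, with 3 counts over these libraries (0.109 CPM) as the floor, Slc7a11 was at least 469.7-fold higher in Model and at least 308-fold higher in M+NSPCC1. Such floors cover counting error only, not reads given to transcripts outside the rows used here. The 3 libraries were taken because they were at 0, so these values are no lower bound for control skin as a whole. The fitted log2 fold change of Model against Ctrl was 6.38 (SE 0.75), and 12.04 without Ctrl 01, so the fitted size depends on that library. In skin measured in bulk, more cells that carry a transcript and more of it per cell cannot be told apart, and the hair shaft, melanocyte and cell cycle shares above were higher in the same 8 libraries.

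Gclc was expressed in control skin and was about 3.75-fold higher in Model. It had 54.8, 56.6, 54.5 and 57.3 CPM in Ctrl 01 to 04, 209.9, 220.5, 158.3 and 248 CPM in Model 01 to 04, and 161.6, 183.7, 201.3 and 187 CPM in M+NSPCC1 01 to 04. The Ctrl libraries lay within 3 CPM of each other and below all others, while the ranges of Model and M+NSPCC1 overlapped. With 4 libraries per group, the mean ± SD was 55.8 ± 1.36 CPM in Ctrl, 209.2 ± 37.5 CPM in Model and 183.4 ± 16.4 CPM in M+NSPCC1. The fitted log2 fold change against Ctrl was 1.91 (SE 0.12) in Model and 1.72 (SE 0.12) in M+NSPCC1.

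Chac1 had 15.9, 14.7, 17.8 and 16.6 CPM in Ctrl 01 to 04, 120.0, 148.7, 250.7 and 120.0 CPM in Model 01 to 04, and 74.2, 90.3, 108.3 and 95.4 CPM in M+NSPCC1 01 to 04. Model 03 was far above the other Model libraries, and every M+NSPCC1 library was below the lowest Model library. The means were 16.3 ± 1.31 in Ctrl and 159.9 ± 62.1 CPM in Model, a ratio of 9.83, and the M+NSPCC1 mean was 5.66 times that of Ctrl. The fitted log2 fold change against Ctrl was 3.30 (SE 0.24) in Model and 2.50 (SE 0.23) in M+NSPCC1.

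Tyr, for comparison, had 1.77, 1.22, 0.107 and 0.648 CPM in Ctrl 01 to 04. It reached 178.4, 222.6, 83.8 and 231.5 CPM in Model 01 to 04 and 144.9, 192.7, 204.7 and 217.2 CPM in M+NSPCC1 01 to 04. Model 03 was the lowest of the 8 model libraries for Tyr, the lowest for Gclc and the highest for Chac1, and it lay within the Model range for Slc7a11. The fitted log2 fold change of Tyr was 7.57 (SE 0.49) in Model against Ctrl and 7.66 (SE 0.49) in M+NSPCC1 against Ctrl.

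**Figure D2:**
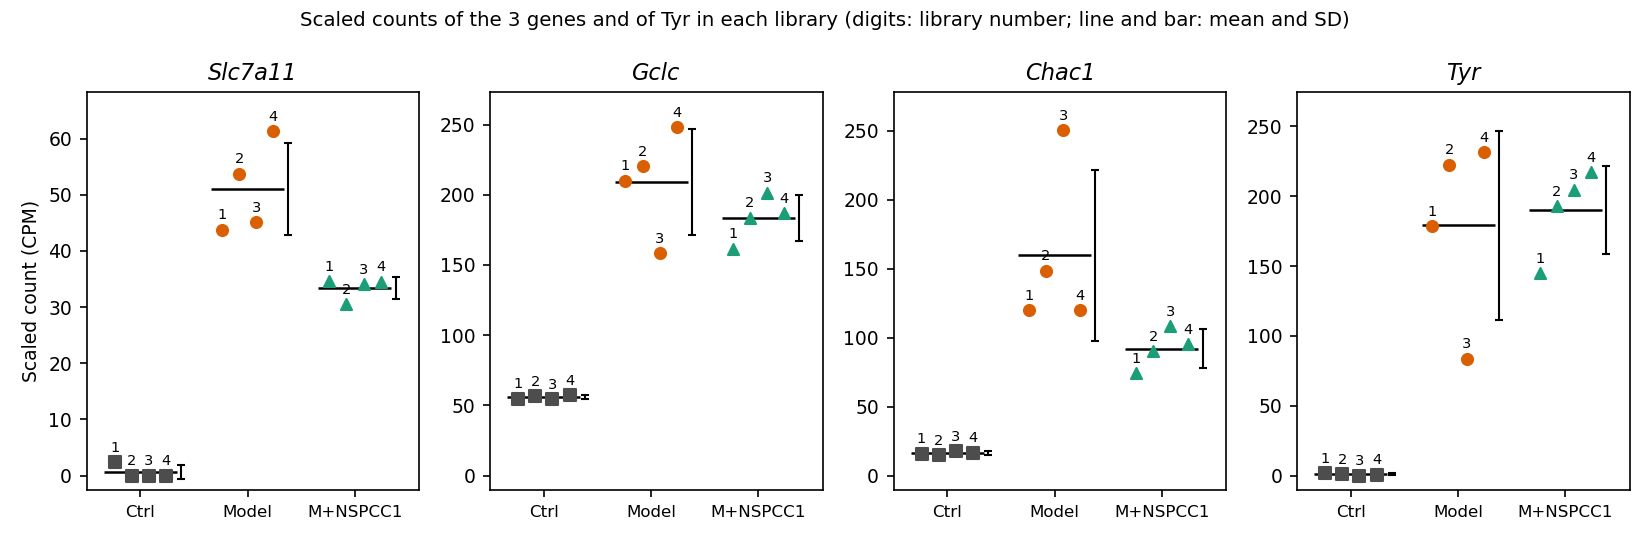
Scaled counts (CPM, y axis) of Slc7a11, Gclc, Chac1 and Tyr in each library of Ctrl, Model and M+NSPCC1; digits are library numbers, lines are group means and bars are SD (n = 4). For Slc7a11 and Chac1 all 4 M+NSPCC1 points lie below all 4 Model points, for Gclc and Tyr these groups overlap, and Model 03 is the highest point for Chac1 and the lowest for Tyr.

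In Model against Ctrl, edgeR called 90.5% of all tested genes at an adjusted p under 0.05, 49.1% of all were called higher, and 43.2% were higher without overlap between the groups. The corresponding shares for M+NSPCC1 against Ctrl were 93.2%, 50.1% and 47.4%. The genes were chosen with these contrasts known, so nothing is read from their falling among them. Over all tested genes the median log2 fold change of Model against Ctrl was 0.255 with TMM scaling, 0.083 with the size factors of DESeq2 and 0.432 when scaled by whole-library depth. Relative to that median of 0.255, the values of Model against Ctrl were 6.12 for Slc7a11, 1.65 for Gclc, 3.04 for Chac1 and 7.32 for Tyr, and all 4 genes stayed higher under each of these scalings.

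Levels of different genes were compared only in FPKM, which divides by transcript length. In Ctrl, Gclc (9.16 to 9.98 FPKM) was above Chac1 (6.11 to 7.27), and Tyr (0.01 to 0.2) and Slc7a11 (0 to 0.15) were near or at 0. In Model the order changed. Chac1 (57.7 to 113.4 FPKM) was above Gclc (29.99 to 48.9) without overlap, Gclc overlapped with Tyr (12.1 to 35.95), and Slc7a11 (2.95 to 4.29) was the lowest of these genes. In M+NSPCC1, Chac1 (35.0 to 53.3 FPKM) overlapped with Gclc (32.2 to 40.7), Gclc with Tyr (20.97 to 32.7), and Slc7a11 (2.18 to 2.5) was again the lowest. Within each library, the ratio of Chac1 to Gclc in FPKM was 1.39, 1.64, 3.78 and 1.18 in Model 01 to 04. It was 1.09, 1.2, 1.31 and 1.21 in M+NSPCC1 01 to 04. Chac1 was thus above Gclc in each of the 8 libraries and below it in the 4 Ctrl libraries. That order holds for this pair only. Of other breakdown genes, Ggt1 (15.4 to 34.7 FPKM in Model) was below Gclc in each Model library. Lap3 (44.2 to 46.9 FPKM in Ctrl) was above Gclc in Ctrl as well. These are transcript levels, and enzyme activity and glutathione itself were not measured.

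The extract was compared with the untreated model to ask what it changed in aged skin. Slc7a11 and Chac1 were lower in M+NSPCC1 than in Model without overlap, and Gclc and Tyr were not separated. The M+NSPCC1 mean differed from that of Model by -34.4% for Slc7a11, -42.4% for Chac1 and -12.3% for Gclc. The fitted log2 fold changes were -0.61 (SE 0.52) for Slc7a11, -0.80 (SE 0.22) for Chac1, -0.19 (SE 0.12) for Gclc and 0.08 (SE 0.32) for Tyr.

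The standard error of Slc7a11 in this comparison takes in the Ctrl libraries, which share 1 estimate of spread with the others, and it was 0.131 with the same log2 fold change when only the 8 libraries compared were fitted. The separation of Slc7a11 and Chac1 was the same under TMM factors, DESeq2's size factors, whole-library depth and FPKM. For Chac1 the size rests in part on Model 03: without it the log2 fold change was -0.49 (SE 0.13), and the remaining Model libraries (120.0 to 148.7 CPM) were still above all M+NSPCC1 libraries (74.2 to 108.3 CPM). For Gclc it was -0.30 (SE 0.08) without Model 03, and Tyr went from 0.08 to -0.15. At an adjusted p under 0.05, edgeR called 0% of the tested genes in this comparison, 6.57% (502 genes) were at an unadjusted p under 0.05, and DESeq2 called 74. Without overlap, 2.89% of all tested genes were lower in M+NSPCC1 and 1.3% were higher. Since Slc7a11 and Chac1 were chosen with this contrast known, their place among the 2.89% is a description. The hair shaft share was lower and the muscle share higher in M+NSPCC1 than in Model on average, with overlapping ranges given above, and their part in these differences was not tested.

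Slc7a11 and Gclc had 2 transcript rows each, and Chac1 had 1. The counting divides reads among transcripts by estimation, so the split is less certain than the sum. For Slc7a11 the first row held between 27.5% and 60.8% of the gene's count in Model and between 9.66% and 50.7% in M+NSPCC1, and the 22 counts of Ctrl 01 were all in the second row. These ranges overlapped between the groups. For Gclc the first row held 48.4% to 93.2% in Ctrl, 68.5% to 85.4% in Model and 65.6% to 86.2% in M+NSPCC1, and it was the larger row in all libraries except Ctrl 01. The rows summed to a whole number of reads in all 12 libraries for Gclc and Chac1. For Slc7a11 they did so in 8 of 12, with Model 01 and M+NSPCC1 01, 02 and 03 as the exceptions, so in those 4 libraries some reads were given to transcripts outside the rows used here. Ctrl 02, 03 and 04 are among the 8 with 0 in both rows, so the check could not fail there. In those Ctrl libraries, a silent gene and reads given to transcripts outside these rows cannot be told apart. Most of the exceptions were in M+NSPCC1, the group with less Slc7a11 than Model. The group difference of Slc7a11 between Model and M+NSPCC1 is affected to the extent of those reads.

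**Figure D3:**
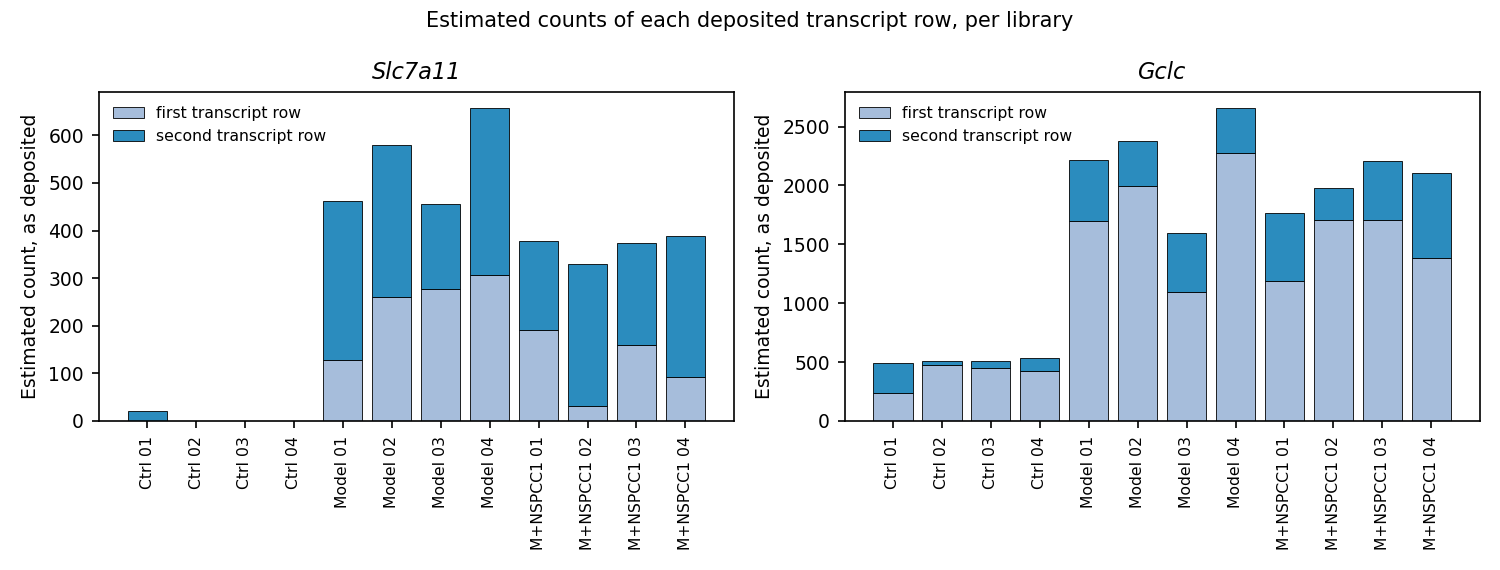
Estimated counts (y axis, as deposited) of the first and second transcript row of Slc7a11 and Gclc in each of the 12 libraries, stacked to the gene's total. The totals separate Ctrl from the other groups for both genes, while the split between rows varies among libraries of the same group, as in M+NSPCC1 01 (50.7% in the first Slc7a11 row) and M+NSPCC1 02 (9.66%).

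The partners of the 3 genes were taken from lists of pathway members, and each count below leaves out Slc7a11, Gclc and Chac1 themselves. The background for these counts in Model against Ctrl is 49.1% of tested genes called higher and 41.4% called lower, and the median over all of them was 0.255. Adjusted p-values come from the quasi-likelihood test of edgeR, with the Benjamini-Hochberg method applied over all tested genes. Cbs, Cth, Oplah, Lap3, Gpx2, Gstp2, Gpx3, Me1, Xpot, Slc40a1, Alox5 and Slc39a14 were named for the largest changes among called genes of their lists. Their values in Model against Ctrl were therefore seen before naming, and their p-values pass by that choice.

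Among genes of cystine and cysteine supply, 10 of 17 were tested, 5 rose (Slc3a2, Cth, Cbs, Ahcy and Txnrd1), 4 fell (Mat2b, Mtr, Cdo1 and Mfsd12) and Mat2a did not pass, with a median of 0.55. These counts are near the background of 49.1% of tested genes higher and 41.4% lower, so they are no result about the list. Slc3a2, the partner of xCT, had 172.9 to 197.9 CPM in Ctrl, 404.3 to 512.1 in Model and 370.3 to 403.6 in M+NSPCC1. It rose by 1.33 on the log2 scale (SE 0.08, adjusted p = 1.16e-07) in Model. The 4 M+NSPCC1 libraries were all below the 4 Model libraries, and the nearest pair was 403.6 against 404.3 CPM. The log2 fold change of -0.26 (SE 0.08) did not pass (adjusted p = 0.568). Cbs and Cth, which make cysteine from homocysteine, rose by 3.13 (SE 0.26, adjusted p = 7.61e-07) and 2.62 (SE 0.32, adjusted p = 1.69e-05). Mfsd12, which brings cysteine into melanosomes and was singled out after its value was seen, fell by 1.73 (SE 0.18, adjusted p = 4.89e-06).

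All tested genes of glutathione synthesis rose. They were 3 of the other 6, with a median of 1.22: Gclm, the modifier subunit that pairs with Gclc, Gss, which adds glycine, and Oplah, which returns oxoproline to glutamate. Gclm had 40.6 to 46.6 CPM in Ctrl, 88.7 to 108.2 in Model and 86.1 to 96.2 in M+NSPCC1, and rose by 1.22 (SE 0.08, adjusted p = 2.28e-07). The log2 fold change was 1.08 for Gss (SE 0.12, adjusted p = 6.31e-06) and 1.48 for Oplah (SE 0.15, adjusted p = 3.41e-06).

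Of the other genes of glutathione breakdown, 5 of 11 were tested. Of these, 3 rose (Ggt1, Lap3 and Cndp2) and 2 fell (Dpep2 and Anpep), with a median of 0.28, close to that of all genes. The counts were also near the background of 49.1% higher and 41.4% lower, so they are no result about the list. Ggt1, the surface enzyme that opens extracellular glutathione, had 0, 1.77, 1.83 and 0 CPM in Ctrl 01 to 04 and 90.5 ± 27.1 CPM in Model (SD, n = 4), with a log2 fold change of 6.63 (SE 0.62) and an adjusted p of 2.19e-06. Lap3, a leucine aminopeptidase that can split cysteinylglycine, rose by 2.63 (SE 0.18, adjusted p = 2.23e-07). The rise of Cndp2 (0.28) was not called with DESeq2's size factors.

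Most tested genes that use or recycle glutathione fell. Of 40 genes, 15 were tested, 3 rose (Gsr, Gpx2 and Gstcd), 10 fell and 2 did not pass (Mgst3 and Hagh), with a median of -0.75. Gsr, which reduces oxidised glutathione, rose by 0.83 (SE 0.15, adjusted p = 0.000337), and Gpx2, an epithelial glutathione peroxidase, by 3.1 (SE 0.43, adjusted p = 4.44e-05). Gpx3, the secreted peroxidase, fell by 2.29 (SE 0.47, adjusted p = 0.000683), Gstp2, a glutathione transferase, by 2.59 (SE 0.24, adjusted p = 2.02e-06), and Gpx4, which removes lipid peroxides, by 1.24 (SE 0.14, adjusted p = 8.37e-06). Gstp1 and Gstp2, and the Gstm genes, are close copies between which reads can be misassigned. The ferroptosis and iron list, which shares Gpx4, had 12 of 24 tested genes, 3 that rose (Slc40a1, Sat1 and Slc39a14) and 9 that fell, with a median of -1.13. Slc40a1, the iron exporter ferroportin, rose by 3.19 (SE 0.17, adjusted p = 5.66e-08), the zinc and iron importer Slc39a14 by 1.37 (SE 0.30, adjusted p = 0.00115), and the lipoxygenase Alox5 fell by 2.25 (SE 0.41, adjusted p = 0.000297).

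The lists of both regulators held genes that rose and genes that fell. Of the other 28 genes of the NRF2 list, 14 were tested, 4 rose (Txnrd1, Gclm, Gsr and Osgin1), 9 fell and Txn1 did not pass, with a median of -1.11. Keap1 itself fell by 1.09 (SE 0.14, adjusted p = 2.83e-05), Txnrd1, thioredoxin reductase, rose by 0.85 (SE 0.15, adjusted p = 0.000197), and Me1, a source of NADPH that is also high in fat and sebaceous cells, fell by 2.77 (SE 0.27, adjusted p = 2.71e-06). Of the other 53 symbols of the ATF4 list, in which some genes stand under an older and a newer symbol, 24 were tested. Of these, 14 rose, 9 fell and Cebpb did not pass, with a median of 0.50. The ATF4 counts are not far from the background of 49.1% higher and 41.4% lower, so they are no result about the list. The amino acid transporters Slc7a5 and Slc7a1, singled out after their values were seen, rose by 2.21 (SE 0.22, adjusted p = 3.27e-06) and 2.24 (SE 0.19, adjusted p = 1.19e-06). Ddit3, which encodes CHOP and is known to act with ATF4 on Chac1, fell by 1.12 (SE 0.12, adjusted p = 5.24e-06), and the ATF4 target Trib3 fell by 0.96 (SE 0.29, adjusted p = 0.00837). Xpot, a transfer RNA exporter, had 37.6, 18.5, 12.6 and 0 CPM in Model 01 to 04 and 0 in all 4 Ctrl libraries, so its libraries were split within the group. Atf4, Asns, Nfe2l2, Nqo1, Hmox1 and Chac2 were not analysed here. Beside these falls, the summed share of sebaceous markers (5 of 15 in the tables, 2 rose and 3 fell) was 1.33% to 1.85% of counts in Ctrl and 0.374% to 1.02% in Model, and that of dermal fibroblast markers (11 of 15, all 11 fell) was 1.65% to 1.89% and 0.601% to 1.38%. The immune share given above was also lower in every Model library than in Ctrl, beside the fall of Alox5, a lipoxygenase of white blood cells. The part of these shares and of the muscle share in the falls, and of the cell cycle and hair shaft shares in the rises, was not tested.

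In M+NSPCC1 against Ctrl the lists divided much as in Model: 6 rose and 4 fell in cystine and cysteine supply, 3 and 0 in synthesis, 3 and 2 in breakdown, 4 and 11 in use and recycling, 4 and 9 in the NRF2 list, 14 and 9 in the ATF4 list and 3 and 9 in ferroptosis and iron. The background there was 50.1% of tested genes higher and 43.1% lower. The counts of cystine and cysteine supply, breakdown and the ATF4 list were not far from it. Both comparisons share the 4 Ctrl libraries. In M+NSPCC1 against Model no other gene of the 7 lists was called, beside 0% of all tested genes, and the medians lay between -0.18 for synthesis and 0.10 for use and recycling, beside 0.005 for all genes. Of the 75 distinct other genes tested in these lists, 2 (2.67%) had all M+NSPCC1 libraries below all Model libraries, Slc3a2 and Hagh, a glyoxalase of the glutathione-dependent route. This share is close to the 2.89% of all tested genes, so it is no result about the lists.

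**Figure D4:**
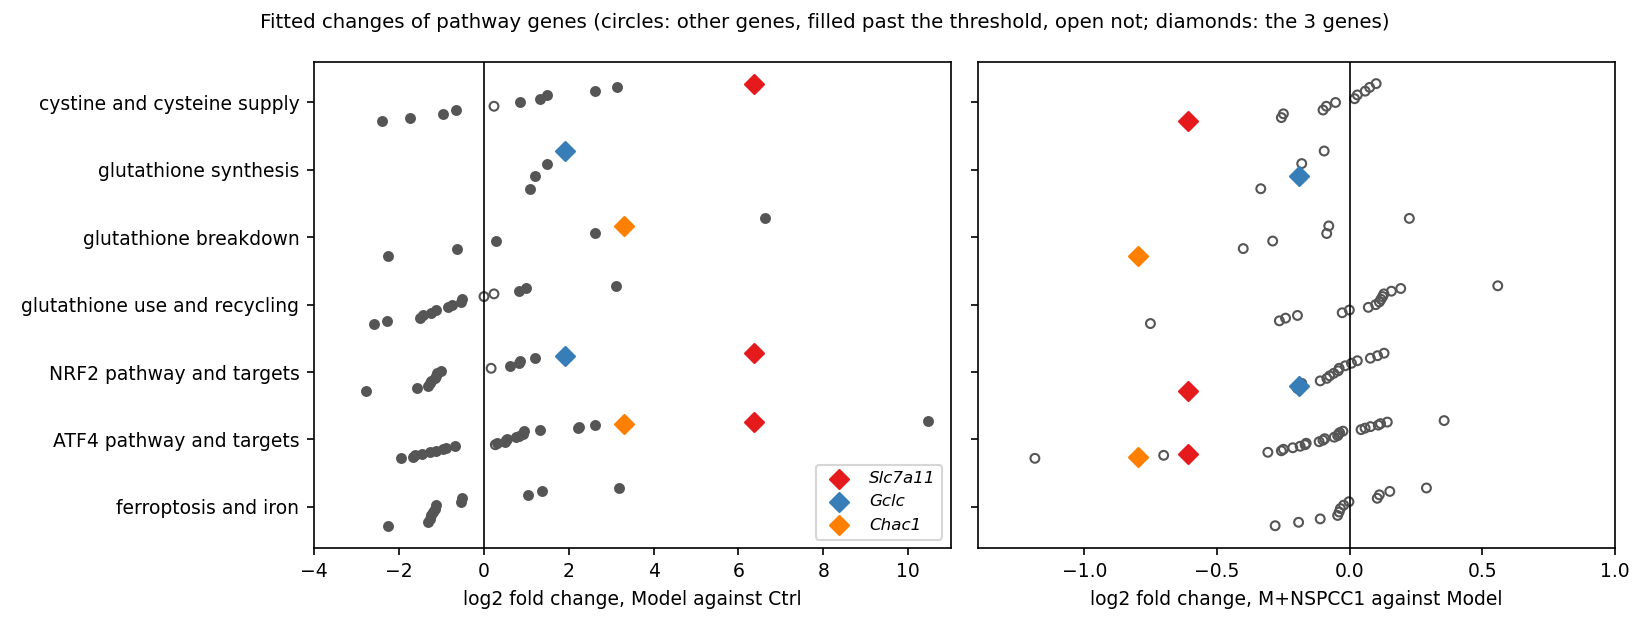
Fitted log2 fold changes (x axes) of the tested genes of 7 pathway lists in Model against Ctrl (left) and M+NSPCC1 against Model (right); diamonds are Slc7a11, Gclc and Chac1, filled circles are other genes past an adjusted p of 0.05 and open circles are genes that did not pass. In the left panel the use and recycling and ferroptosis lists lie mostly below 0 (medians -0.75 and -1.13). The NRF2 list as drawn, with Slc7a11 and Gclc, has 9 of 16 genes below 0 and a median of -1.05. In the right panel no circle is filled.

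Co-variation was measured over the 8 libraries of Model and M+NSPCC1, since Ctrl formed a cluster of its own for every gene. The 15 relations on log2 CPM were the 3 pairs of genes, and each gene with Tyr, with the other melanocyte genes, with the hair shaft share and with the muscle share. Each pair of measures comes from the same libraries and shares their scaling. Co-variation and the relation to Tyr were part of what the genes were proposed for, so Pearson's r and Spearman's rho are given without p-values.

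The 3 pairs of genes had r from -0.036 to 0.625. For Slc7a11 with Gclc, r was 0.625 and rho 0.476, with 0.605 when each group was centred on its mean. For Slc7a11 with Chac1, r was 0.549 and rho 0.738, and the centred r was -0.368, so the positive value was not kept with groups centred. Model 03, with 250.7 CPM of Chac1 at 45.1 CPM of Slc7a11, weighs on that centred value. With 4 libraries a group, it does not settle the relation within groups. For Gclc with Chac1, r was -0.036 and rho 0.31, and r was 0.86 without Model 03, the library with the most Chac1 and the least Gclc. Slc7a11 with Gclc was 0.854 without that library and 0.351 without Model 04. Without the 2 libraries farthest from the median of the measure on the x axis, r was 0.723 for Slc7a11 with Gclc, 0.818 for Slc7a11 with Chac1 and 0.738 for Gclc with Chac1 (6 libraries each).

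Gclc was high where Tyr was high, with an r of 0.772 and a rho of 0.833. The libraries with the least Tyr, Model 03 and M+NSPCC1 01, were also those with the least Gclc, and without them r was 0.492, so the size of r rests on these libraries together. With the groups centred on their means it was 0.958. With the score of the melanocyte genes other than Tyr, Gclc had an r of 0.804 and a rho of 0.833, and an r of 0.574 without the same libraries. With 1 library left out, this r lay between 0.784 and 0.868.

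Slc7a11 had an r of 0.078 and a rho of 0.286 with Tyr over the 8 libraries pooled. With the groups centred on their means these were 0.562 and 0.667, so the pooled values were below the centred ones. Pooled without Model 03 and M+NSPCC1 01, r was 0.516. With 4 libraries a group, the centred value does not settle the relation within each group. In Model, library 04 had the most Tyr (231.5 CPM) and the most Slc7a11 (61.3 CPM). In M+NSPCC1, library 01 had the least Tyr (144.9 CPM) and the most Slc7a11 (34.7 CPM). M+NSPCC1 02, 03 and 04 had 192.7 to 217.2 CPM of Tyr, within the Model range, at 30.5 to 34.5 CPM of Slc7a11, below it. In FPKM, Slc7a11 per Tyr was 0.126, 0.113, 0.245 and 0.119 in Model 01 to 04 and 0.115, 0.077, 0.0788 and 0.0765 in M+NSPCC1 01 to 04. The ratio was lowest in M+NSPCC1 02, 03 and 04, and M+NSPCC1 01 lay within the Model range. Chac1 had an r with Tyr of -0.562, a rho of 0.143 and a centred r of -0.639. The negative r rests on Model 03, without which r was 0.694, and without the 2 libraries farthest from the median of Tyr it was 0.298.

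Gclc also varied with the hair shaft share from library to library. Its r was 0.881 and rho 0.952, with 0.853 when the groups were centred and 0.98 without Model 02 and M+NSPCC1 01. With the muscle share Gclc had an r of -0.849 and a rho of -0.881, a centred r of -0.813, and values from -0.91 to -0.773 with 1 library left out. Across the scalings by DESeq2's size factors, by whole-library depth and on log2(FPKM + 1), r was 0.873, 0.85 and 0.842 with the hair shaft share, and -0.81, -0.797 and -0.792 with the muscle share. For Slc7a11, r was 0.566 with the hair shaft share and -0.78 with the muscle share, which was 0.014 without Model 02 and Model 04. For Chac1, r was 0.277 with the hair shaft share and 0.918 without Model 03, and Model 03 had the most Chac1 at the lowest hair shaft share of its group. The part of hair follicle tissue in the levels of the 3 genes was not tested.

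**Figure D5:**
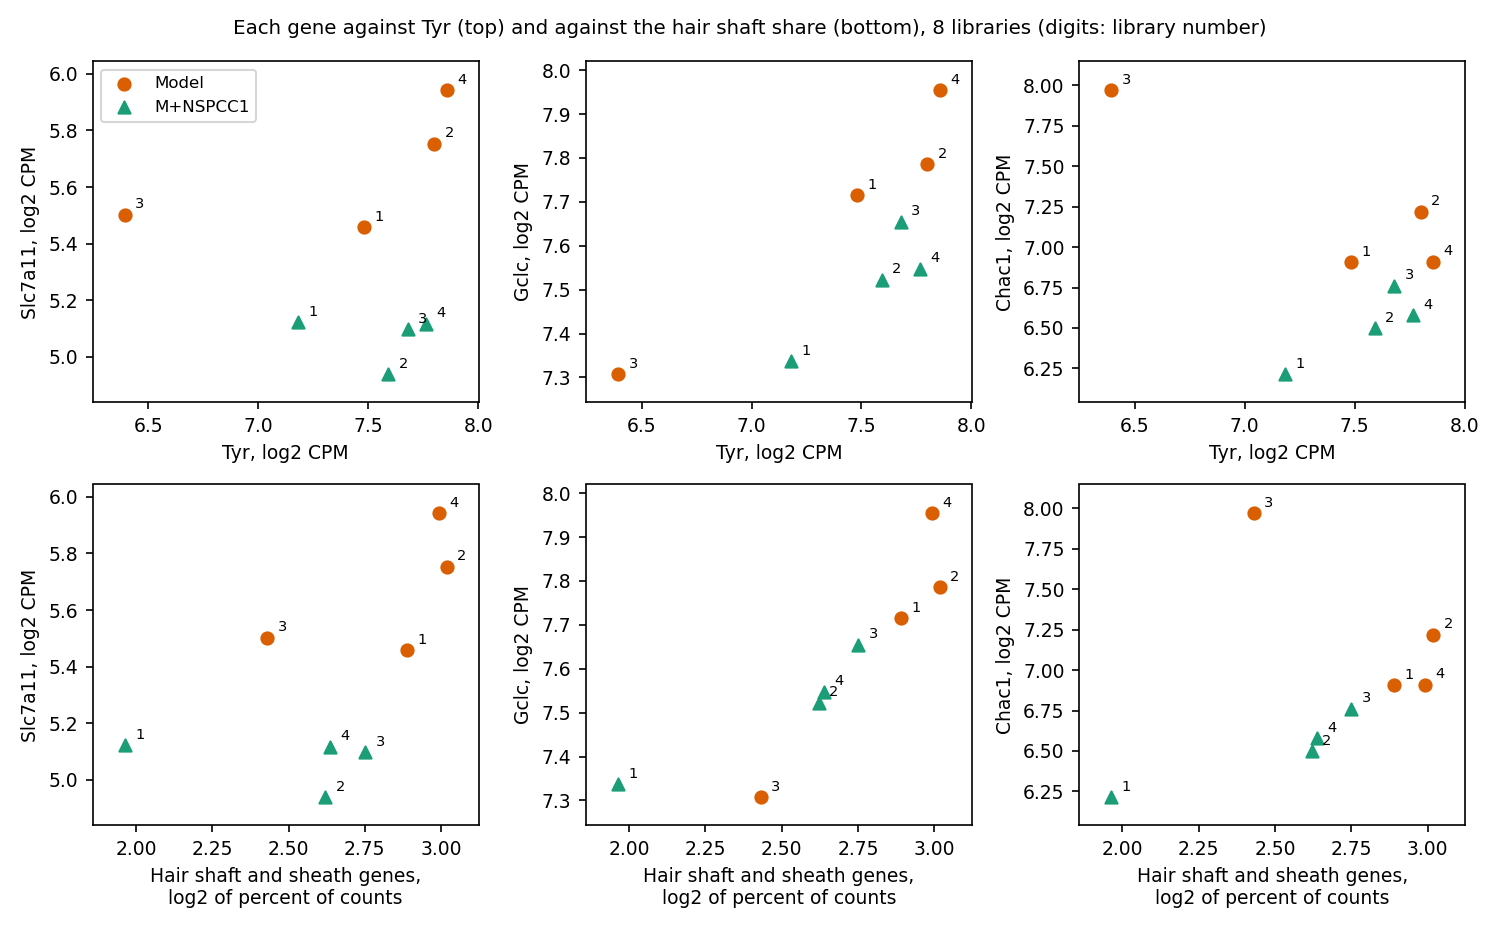
Log2 CPM of Slc7a11, Gclc and Chac1 (y axes) against Tyr in log2 CPM (top row) and against the log2 percent of counts in hair shaft and sheath genes (bottom row) for the 4 Model and 4 M+NSPCC1 libraries, numbered. Gclc increases with both measures (r 0.772 and 0.881), the M+NSPCC1 points lie below the Model points for Slc7a11 at all values of Tyr, and Model 03 lies apart in the Chac1 panels.

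Among the 6274 genes that averaged 10 CPM or more, those whose log2 CPM was most like each gene over the 8 libraries were picked by Pearson's r, as a description. For Slc7a11 they were Trim29 (0.984), Pard6g (0.954), Ptpn3 (0.953), Magt1 (0.938) and Hook1 (0.936). Trim29, a TRIM protein of stratified epithelia, had 1082, 1269, 1174 and 1293 CPM in Model 01 to 04 and 989.4, 933.6, 974.4 and 977.2 CPM in M+NSPCC1 01 to 04, so it too was lower in all 4 M+NSPCC1 libraries. Gclc stood at rank 481 of this order, Chac1 at 686 and Tyr at 2526. For Gclc the nearest genes were Vps13b (0.976), Pdzd8 (0.97), Tet3 (0.969), Slc31a1 (0.964), a copper importer, and Dlx1 (0.964), a homeobox factor, with Tyr at rank 501. For Chac1 they were Krtap1-4 (0.972), Gm11567 (0.969), Gm11563 (0.967), Myo6 (0.96) and Krt84 (0.949), with Slc7a11 at rank 586, Gclc at 3167 and Tyr at 5399. Krt84 is a hair keratin and Krtap1-4 a keratin-associated protein of the hair shaft, a family of close copies between which reads can be misassigned. Krt84 had 41.3, 47.8, 122.7 and 57.1 CPM in Model 01 to 04 and 15.3, 26.2, 28.1 and 19.7 CPM in M+NSPCC1 01 to 04. Like Chac1, it was highest in Model 03, and all its M+NSPCC1 libraries were below all its Model libraries. Trim29 and Krt84 were picked for such likeness over the same libraries, so the shared pattern is no separate support.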

How the data were processed

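Skin RNA was isolated with TRIzol and turned into messenger RNA libraries, per the labels' protocols, and the 12 libraries were grouped and numbered by their titles. The authors deposited estimated counts and FPKM values (scaled by transcript length and depth) for each transcript and library. Per the submitters' processing notes, the tools were RSEM 1.3.1, HISAT2 2.2.1 and DESeq2 1.34.0 with the build mm10, in roles not stated. How the 10720 transcripts were selected is likewise not stated in the labels. Of the deposited count values, 69.5% were not whole, as estimation gives (sums were called whole within 0.011 per row). Estimated counts were summed by gene ID and rounded, and 14 symbols turned into dates were restored from the IDs, of which 7881 of 7902 matched RefSeq. Relative depth of the whole libraries ran from 0.967 to 1.031.

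Tests used R 4.3.3 and edgeR 4.0.16: quasi-likelihood, TMM factors, the default filter by expression, 1 fit over the 12 libraries, and Benjamini-Hochberg adjustment over 7638 genes with a threshold of 0.05. Log2 fold changes are positive where the group named first is higher. Log2 CPM used a prior count of 2. The steps were tested on simulated data, in which a small part of the genes changed and only in M+NSPCC1. A setting like the comparisons with Ctrl, where most genes were called, was not simulated. The exact permutation tests planned for relations across libraries are not reported, since the genes were proposed for their co-variation. Alternatives were DESeq2 1.42.0, its size factors, whole-library depth, 2 other filters, the replicate number as a block, a fit of the 8 libraries of a comparison alone, each library left out, and limma 3.58.1 on log2(FPKM + 1) or log2(FPKM + 0.1) for a mean FPKM of at least 0.5, a scale that understates changes of low genes. The members and gene lists were chosen with earlier results of these data known. Named genes were the 3 members and Tyr, the 3 largest changes among the called genes of each list, 19 fixed partners (13 tested) and the 5 genes most like each member.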

Additional observations from a re-analysis of the deposited data

Results flagged for a closer look

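Of the 21 sets of 4 libraries examined for a library far from the others, 3 met the 95% criterion. The sets covered genes and some, not all, of the marker shares in each group. Chance flags about 1 set in 20, a rate that does not hold for values tied at 0. Slc7a11 in Ctrl 01 stood at 2.43 CPM while the other Ctrl libraries were at 0. With the others tied at 0, any count in Ctrl 01 would have met the criterion. Slc7a11 in M+NSPCC1 02 stood at 30.5 CPM, with the nearest library at 34.1, and this library also had the smallest share of the gene in its first transcript row of the M+NSPCC1 libraries. The hair shaft share of Ctrl 02 was 0.052% of counts, with the nearest Ctrl library at 0.0245%, far below the shares of the model groups. The sebaceous share was not among the sets examined, and Model 03 had 1.02% there against 0.374% to 0.411% in the other Model libraries.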

How the results depend on the processing

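The count of called genes was 6913 in Model against Ctrl, 0 in M+NSPCC1 against Model and 7117 in M+NSPCC1 against Ctrl. Leaving out 1 library at a time gave 6724 to 7065, 0 to 4 (2 without Model 03, 4 without M+NSPCC1 01) and 6927 to 7328. In M+NSPCC1 against Model, DESeq2 called 74 genes (16 higher, 58 lower) and the fit of only the 8 libraries compared called 2. Same-numbered libraries correlated between -0.162 and 0.119 in their deviations, which shows no clear pairing by number but cannot exclude one. The replicate block gave 6823, 0 and 7027. All 441 recounts of list calls stayed within 1.5 times the main count. That count was 0 for every list in M+NSPCC1 against Model, where a ratio has no meaning. In the comparisons with Ctrl most tested genes were called, so the counts had little room to move. Of the recomputed fold changes of the 3 genes and Tyr, 236 stayed within 1 SD and 16 moved. The sign of each difference of the 3 genes was the same in all 21 alternatives, and Tyr in M+NSPCC1 against Model kept it in 20. The relation of Gclc with Tyr had an r of 0.837 on log2(FPKM + 1), 0.826 with whole-library depth and 0.958 with centred groups, and ran from 0.75 to 0.826 with a library left out. Signs changed with centred groups for Slc7a11 with Chac1 (-0.368), Chac1 with the hair shaft share (-0.191) and Chac1 with the muscle share (0.323). Without the 2 libraries farthest from the median they changed for Gclc with Chac1 (0.738), Chac1 with Tyr (0.298), Chac1 with the melanocyte score (0.374), Chac1 with the hair shaft share (-0.454) and Slc7a11 with the muscle share (0.014). With 1 library left out, r ran from -0.187 to 0.493 for Slc7a11 with Tyr, -0.142 to 0.497 for Slc7a11 with the melanocyte score, -0.373 to 0.86 for Gclc with Chac1, -0.815 to 0.694 for Chac1 with Tyr, -0.812 to 0.737 for Chac1 with the melanocyte score and -0.268 to 0.918 for Chac1 with the hair shaft share. The cause of these changes was not tested. Few counts limit the Ctrl level of Slc7a11, with 22 in Ctrl 01 and none in the others, and Ctrl 01 had the lowest total of the Ctrl libraries (9717338 against up to 10047733). Why the others were at 0 was not tested.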
